A study of Mus musculus with 4 samples.

Results

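The smooth muscle contractile genes described here are 10 genes, Acta1, Acta2, Actg2, Tagln, Cnn1, Cnn2, Tpm1, Tpm2, Myl9 and Mylk, which encode actins, actin-binding proteins, tropomyosins, a myosin light chain and its kinase. They were chosen by name, with earlier results of these data known. All 20 probe sets annotated to them were read on all 4 arrays, out of 18193 genes with a probe set. The arrays were 1-colour Affymetrix arrays of total RNA, with 1 array for each of 4 mouse samples. These were iNSC_14F and iNSC_13F (induced neural stem cells made with 14 and with 13 factors, in which introduced genes turn another cell type towards a neural stem cell state), NSC (neural stem cells derived from primary tissue) and MEF (mouse embryonic fibroblasts). The title of the series gives liver cells of adult mice and B lymphocytes as origins of reprogrammed cells. The labels tie neither to an induced sample, and they name neither the factors nor the age or strain of any sample. For the induced cells and NSC the culture medium was N2 with laminin and the growth factors EGF and bFGF, and no medium is named for MEF. With single arrays no spread can be estimated, so differences are described without a test.

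In smooth muscle, thin filaments of alpha and gamma smooth muscle actin are bound by tropomyosin, calponin and transgelin. Contraction starts when myosin light chain kinase phosphorylates the regulatory light chain, and myosin phosphatase reverses that step. Fibroblasts in culture often carry the same genes in stress fibres. Many of the genes are known targets of SRF, which binds a sequence called the CArG box together with myocardin or the related MRTF coactivators.

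Sequences around a transcript start are shown for 4 members in which a CArG box or a near match to it was found, from RefSeq (GRCm38.p6). The start is the one that the table of promoter sequences uses, which need not be the outermost annotated start of the gene. Of the 10 members, 8 had a promoter sequence in the table, each 300 bases long. The CArG box was searched as CC and GG around 6 positions that each hold A or T, a pattern that reads the same on both strands. It was present in 3 of these 8, Acta1, Cnn2 and Myl9, and in 1.63% of all 32851 promoter sequences of the same length. With up to 1 mismatch it was present in 5 of 8, which adds Acta2 and Tpm1, and in 21.1% of all sequences. Capitals mark the exact CArG box in Acta1, Cnn2 and Myl9, and the pair of sequences with 1 mismatch in Acta2. A match is a description of letters and no evidence of binding. The Acta2 sequence is chr19:34255324-34255623 (minus strand), Acta1 is chr8:123894794-123894893 (minus), Cnn2 is chr10:79988499-79988598 (plus) and Myl9 is chr2:156775258-156775357 (plus), each written 5′ to 3′ along the gene.
Acta2: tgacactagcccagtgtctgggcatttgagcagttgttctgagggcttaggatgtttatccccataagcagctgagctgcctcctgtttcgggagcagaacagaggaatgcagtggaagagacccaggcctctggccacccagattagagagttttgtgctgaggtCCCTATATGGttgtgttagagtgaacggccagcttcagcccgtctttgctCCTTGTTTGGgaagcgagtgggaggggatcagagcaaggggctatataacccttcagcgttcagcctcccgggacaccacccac
Acta1: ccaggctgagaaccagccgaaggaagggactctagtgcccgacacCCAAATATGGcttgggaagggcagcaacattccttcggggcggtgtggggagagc
Cnn2: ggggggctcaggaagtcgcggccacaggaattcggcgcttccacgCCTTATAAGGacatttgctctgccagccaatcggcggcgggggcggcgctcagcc
Myl9: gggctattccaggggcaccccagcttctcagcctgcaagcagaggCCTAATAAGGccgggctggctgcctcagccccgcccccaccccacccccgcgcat

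Relative to the start used in that table, the capitals lie at -84 to -75 and -34 to -25 in Acta2, at -73 to -64 in Acta1, at -56 to -47 in Cnn2 and at -161 to -152 in Myl9. The sequence CATTCC, known as the MCAT motif of TEAD factors, was searched on both strands and does not overlap the capitals. It was found in 4 of 8 members (Acta1, Acta2, Tpm1 and Mylk) and in 14.7% of all promoter sequences. The Mylk sequence, chr16:34784700-34784999 (plus strand), held no CArG box with up to 1 mismatch. It lies inside the annotated gene span, chr16:34745199-35002436, as the Tpm1 sequence does in its gene. The annotated span of Acta2, chr19:34240336-34255585 (minus strand), also covers most of the Acta2 sequence, both marked matches included. The Tpm2 and Cnn1 sequences held none either.

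The deposited values are MAS5 signals, linear intensities of a probe set on 1 array. A signal of 103.91 served as the floor, the level reached by receptor genes not thought to be expressed here, and where the dimmer array did not exceed it the fold is a bound, given as "at least". Each gene is represented by its brightest probe set. A gene was called where 2 arrays differed at least 4-fold and the brighter was above the floor. Of the 10 genes, 6 were above the floor in iNSC_14F, 7 in iNSC_13F, 5 in NSC and 10 in MEF. Hybridization controls were lower on the NSC array, by 1.86-fold against iNSC_14F, 2.11-fold against iNSC_13F and 1.85-fold against MEF, so the members' differences from NSC were also computed with arrays scaled to these controls. Each of the induced arrays against MEF can be compared without the NSC array. The beta-actin control probes had a 3′ over 5′ ratio, a sign of RNA quality, of 1.65 in iNSC_14F, 1.53 in iNSC_13F, 1.35 in NSC and 1.42 in MEF, and its part in the results was not tested. Among genes above the floor on both induced arrays, 95% differed by less than 2.32-fold between them.

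Against MEF, nearly the whole contractile set was far lower in the induced cells, as it was in NSC. In iNSC_14F 9 of 10 genes were at least 4-fold lower and 0 higher, against 8.03% of all genes lower and 4.49% higher. In iNSC_13F 9 of 10 were lower and 0 higher, against 9.27% of all genes lower and 3.66% higher. In NSC 10 of 10 were lower, against 7.21% of all genes lower and 6.09% higher. Scaled to hybridization controls, 8 were lower in NSC, since Tpm1 (3.94-fold) and Mylk (3.43-fold) then missed 4-fold. With that scaling NSC was lower by 47.4-fold for Acta2, 40.1-fold for Cnn2, 62.2-fold for Myl9 and 212-fold for Tpm2. For Tagln it was 291-fold and for Acta1 20.5-fold, while Actg2 and Cnn1 kept their bounds. The NSC folds given by gene below are on the deposited scale and are larger for these genes, except Actg2 and Cnn1. The median log2 difference from MEF over the 10 genes was -6.40 in iNSC_14F, -6.51 in iNSC_13F and -6.34 in NSC, beside medians of 0.10, 0.09 and -0.01 over all genes measured in the same comparisons. These medians rest on bounds for 4, 3 and 5 genes. The 3 comparisons share the MEF array. In bulk RNA, fewer cells with a transcript and less of it in each cell cannot be told apart.

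**Figure D1:**
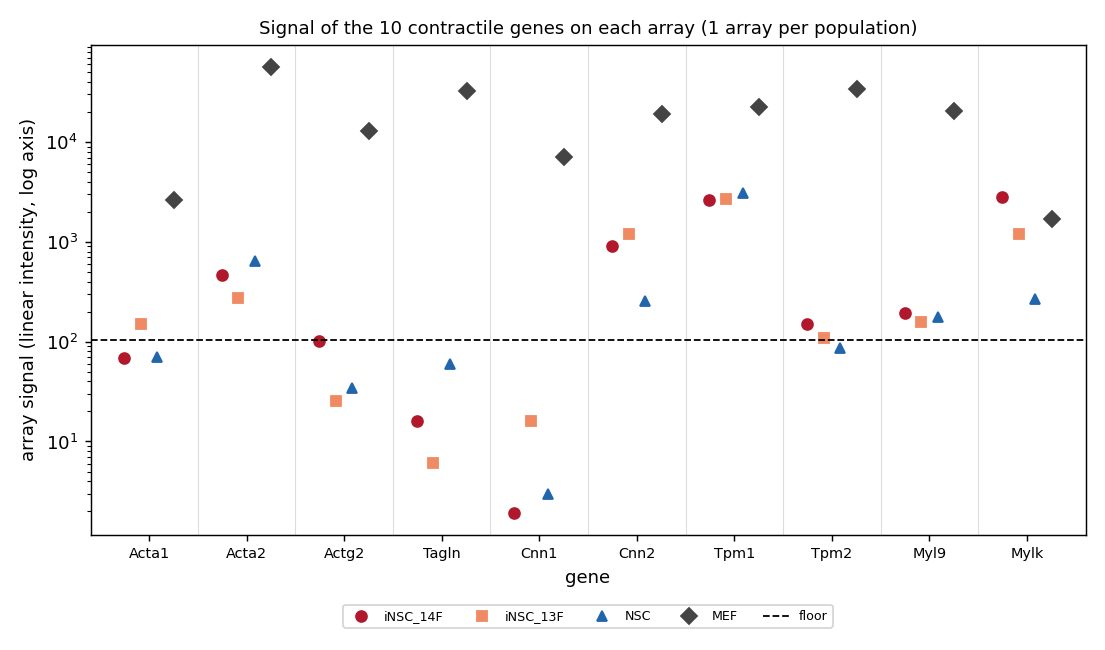
Signal (linear intensity on a log axis) of the brightest probe set of each of the 10 genes on each array, with 1 point per array and the dashed line at the floor of 103.91. MEF is the highest point for every gene but Mylk, whose highest point is iNSC_14F.

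The actin members include the muscle isoforms that mark contractile cells. Acta2, which encodes alpha smooth muscle actin, had a signal of 471 in iNSC_14F, 276 in iNSC_13F and 644 in NSC, against 56590.4 in MEF. Relative to MEF it was lower by 120-fold in iNSC_14F, 205-fold in iNSC_13F and 87.8-fold in NSC. On this brightest probe set all 3 neural populations were above the floor. Actg2, gamma smooth muscle actin, had 101 in iNSC_14F, 25.7 in iNSC_13F and 34.5 in NSC, against 12868 in MEF, so it was at least 124-fold lower in each neural population. Acta1, alpha skeletal actin, had 68.6 in iNSC_14F, 149 in iNSC_13F and 69.4 in NSC, against 2629.7 in MEF. For Acta1 the difference from MEF was at least 25.3-fold in iNSC_14F and in NSC, and 17.6-fold in iNSC_13F. The MEF array was thus the highest for all 3 muscle actins, and iNSC_13F alone of the neural populations had Acta1 above the floor.

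The actin signals carry a limit of the probes. The coding sequences of actins are nearly alike, and the brightest Acta2 probe set has the suffix _s_at, which marks probes shared with other transcripts. The other Acta2 probe sets were dimmer and also highest in MEF. 1444105_at had a signal of 3.48 in iNSC_14F, 9.01 in iNSC_13F and 5.32 in NSC, against 517 in MEF, which is at least 4.97-fold lower in each. 1456658_at had 4.26, 37.2 and 12.9 in the same order, against 144 in MEF. Without the _s_at probe set, the log2 difference of Acta2 from MEF was a bound of -2.31 in all 3 neural populations. The other probe sets were below the floor on all 3 neural arrays. Detection of Acta2 there, and its differences among those arrays, thus rest on the _s_at probe set alone.

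Transgelin and the calponins bind the actin filament. Tagln, which encodes transgelin (SM22), had a signal of 16.2 in iNSC_14F, 6.08 in iNSC_13F and 60.0 in NSC, against 32283 in MEF, and was at least 311-fold lower in each neural population. Cnn1, basic calponin, had 1.94 in iNSC_14F, 15.9 in iNSC_13F and 3.00 in NSC, against 7006 in MEF, at least 67.4-fold lower in each. Both genes were below the floor on all 3 neural arrays, so no order among those arrays can be read. Cnn2, a calponin found in many non-muscle cells, had 905 in iNSC_14F, 1193 in iNSC_13F and 254 in NSC, against 18908 in MEF. Unlike its relative it was above the floor on every array, and it was lower than in MEF by 20.9-fold in iNSC_14F, 15.8-fold in iNSC_13F and 74.4-fold in NSC.

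Tropomyosins lie along the actin filament and control access of myosin. Tpm2 had a signal of 151 in iNSC_14F, 109 in iNSC_13F and 86.1 in NSC, against 33719.9 in MEF, a difference of 223-fold in iNSC_14F, 310.0-fold in iNSC_13F and at least 325-fold in NSC. All 3 neural values lay near the floor. Tpm1 had 2644 in iNSC_14F, 2715 in iNSC_13F and 3064.5 in NSC, against 22364 in MEF, or 8.46-fold, 8.24-fold and 7.30-fold lower. Tpm1 therefore had a signal well above the floor in every population. On this probe set and the deposited scale, the neural arrays were within 1.16-fold of each other. Scaled to hybridization controls, Tpm1 was 2.16-fold lower in iNSC_14F and 2.38-fold lower in iNSC_13F than in NSC.

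Both tropomyosin genes give muscle and non-muscle forms through alternative promoters and splicing, and their probe sets did not all show the same differences. For Tpm1, 1423721_at had 689 in iNSC_14F, 1636 in iNSC_13F and 1071 in NSC, against 23709 in MEF, and was 34.4-fold, 14.5-fold and 22.1-fold lower. 1456623_at had 105 in iNSC_14F, 200.5 in iNSC_13F and 141 in NSC, against 859 in MEF. On these probe sets iNSC_13F was the highest of the neural arrays, 2.38-fold and 1.91-fold above iNSC_14F, whereas on the brightest probe set the induced arrays were 1.03-fold apart. For Tpm2, 1425028_a_at and 1449577_x_at were below the floor on the neural arrays. In MEF the first had 23672, a difference of at least 228-fold, and the second 5729.8, at least 55.1-fold. 1419739_at had 139 in iNSC_14F, 124 in iNSC_13F and 57.4 in NSC, against 180.3 in MEF, a difference of less than 4-fold on a dim probe set.

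**Figure D2:**
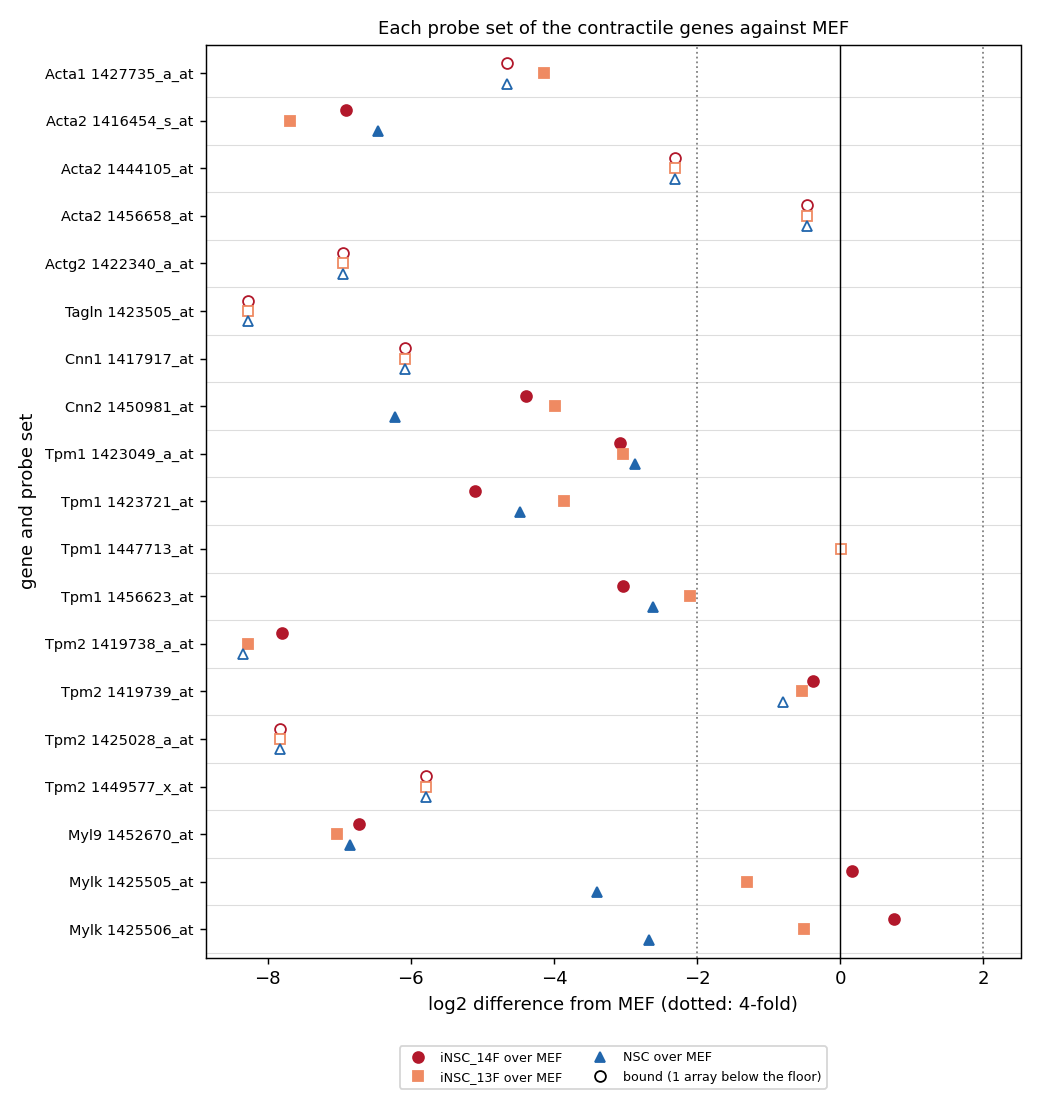
Log2 difference from MEF of the 19 probe sets above the floor on at least 1 array, with open markers for bounds and dotted lines at 4-fold. Most probe sets lie left of the 4-fold line for all 3 neural populations, and those of Mylk lie inside the 4-fold lines for the induced cells, between -1.30 and 0.75.

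Counted by probe set, 14 of 18 measured in iNSC_14F against MEF were at least 4-fold lower (7.38% of all probe sets), 14 of 19 in iNSC_13F (8.27%) and 16 of 18 in NSC (6.18%). None was 4-fold higher (0 in each, where 3.65%, 3.07% and 5.7% of all probe sets were). Probe sets of 1 gene share its transcript and are not independent of each other.

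The regulatory light chain and its kinase had different patterns over the arrays. Myl9, the regulatory light chain of smooth muscle and non-muscle myosin, had a signal of 194 in iNSC_14F, 157 in iNSC_13F and 178 in NSC, against 20560.3 in MEF. Myl9 was thus lower by 106-fold in iNSC_14F, 131-fold in iNSC_13F and 115-fold in NSC. Mylk, the kinase that phosphorylates this light chain, had 2835 in iNSC_14F, 1186 in iNSC_13F and 266 in NSC, against 1684 in MEF. It was the member not called in the induced cells, at 1.68-fold higher than MEF in iNSC_14F and 1.42-fold lower in iNSC_13F, while it was 6.34-fold lower in NSC. Its other probe set above the floor, 1425505_at, had 1458 in iNSC_14F, 527 in iNSC_13F and 124 in NSC, against 1299 in MEF, so both put iNSC_14F first and NSC last. On it iNSC_14F was 1.12-fold higher and iNSC_13F 2.47-fold lower than MEF. The remaining one, 1425504_at, was below the floor on all 4 arrays, between 41.4 and 51.8. The Mylk locus encodes long and short kinase forms and the kinase-free protein telokin, and the probe positions needed to tell them apart were not used here.

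Against NSC 6 members could be compared in iNSC_14F and 7 in iNSC_13F, and Mylk and Cnn2 stood out. In iNSC_14F 1 of 6 was at least 4-fold higher and 0 lower, where 1.42% of all genes were higher and 9.4% lower. In iNSC_13F 2 of 7 were higher and 0 lower, where 1.07% of all genes were higher and 11.3% lower. The members' medians were 0.33 and 0.07 (log2), beside 0.33 and 0.30 over all genes measured, and they turned to -0.20 and -0.36 with arrays scaled to hybridization controls, where the medians of all genes were -0.48 and -0.65. By probe set, 2 of 10 were at least 4-fold higher in iNSC_14F (1.13% of all) and 3 of 12 in iNSC_13F (0.997%), and 0 were lower (9.7% and 11.3% of all).

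The genes called higher than in NSC were Mylk and Cnn2. Mylk was 10.7-fold higher in iNSC_14F and 4.47-fold higher in iNSC_13F, and the second probe set gave 11.8-fold and 4.26-fold. Scaled to hybridization controls, Mylk was 5.73-fold and 2.12-fold higher, so the iNSC_13F value then missed 4-fold. Cnn2 was 3.56-fold higher in iNSC_14F and 4.69-fold higher in iNSC_13F, and 1.91-fold and 2.23-fold higher with that scaling. Both genes were higher than NSC on both induced arrays under each of the 8 alternatives tried.

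The remaining members differed less from NSC, and several of them had no settled direction. On its _s_at probe set, Acta2 was 1.37-fold lower in iNSC_14F and 2.34-fold lower in iNSC_13F than in NSC. Its log2 difference in iNSC_13F moved from -1.23 to -2.30 with scaling to the controls. Tpm1 was 1.16-fold and 1.13-fold lower, but with the median of its probe sets the iNSC_13F difference was 0.56 (log2). With scaling to the controls, Tpm1 was 2.16-fold and 2.38-fold lower. Myl9 was 1.09-fold higher in iNSC_14F and 1.14-fold lower in iNSC_13F, and turned to the other side of NSC under 1 scaling in each case. Tpm2 was at least 1.46-fold higher in iNSC_14F and 1.05-fold, also a bound, in iNSC_13F, and both turned lower with scaling to the controls. Actg2, Tagln and Cnn1 were below the floor on NSC and both induced arrays.

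**Figure D3:**
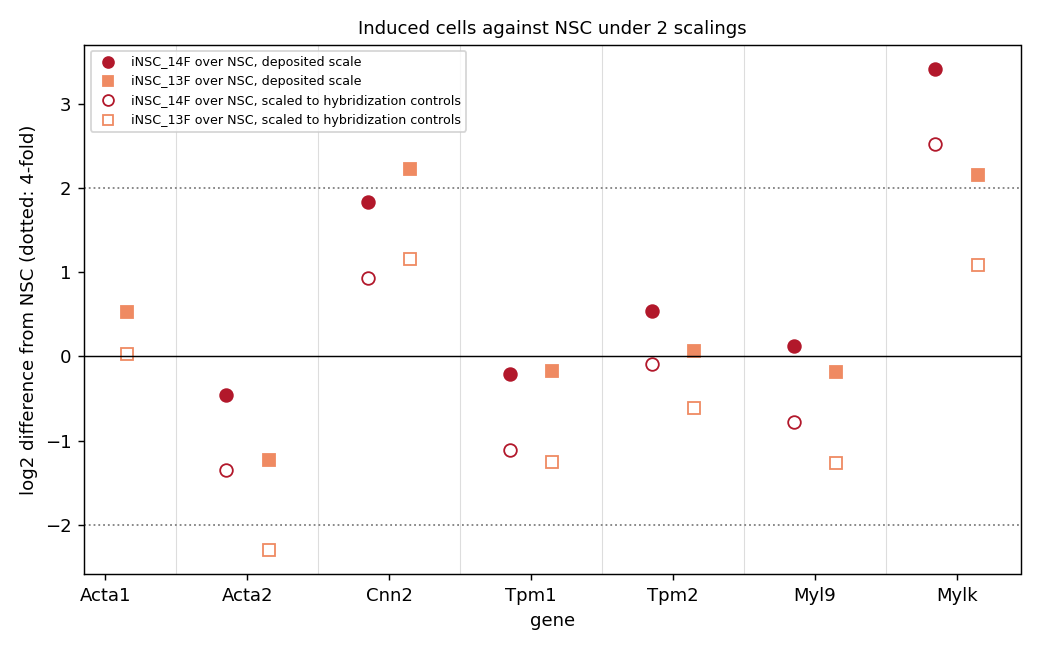
Log2 difference of each induced array from NSC for the 7 members above the floor on 1 of the arrays compared, on the deposited scale (filled) and scaled to hybridization controls (open), with dotted lines at 4-fold. The values of Acta1 and Tpm2 are bounds on the deposited scale, and Mylk and Cnn2 lie above 0 in all cases.

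Between the induced arrays 0 of 7 measured members were 4-fold apart, where 0.5% of all genes were higher and 0.342% lower in iNSC_14F. By probe set 0 of 12 were (0.419% of all higher and 0.316% lower). Mylk differed most, at 2.39-fold higher in iNSC_14F, just above the 2.32-fold that held 95% of genes. Acta2 was 1.71-fold higher, Tpm2 1.39-fold and Myl9 1.24-fold higher, and Cnn2 was 1.32-fold lower in iNSC_14F. Acta1 was at least 1.44-fold lower in iNSC_14F.

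Other genes of the same protein families, which most cells carry in their cytoskeleton, were set beside the members. Actb, cytoplasmic beta actin, had a signal of 43959 in iNSC_14F, 42471 in iNSC_13F and 27176 in NSC, against 46364 in MEF, and was 1.05-fold, 1.09-fold and 1.71-fold lower. These directions turned with the median of probe sets on both induced arrays and with scaling to the controls in NSC. Actg1, cytoplasmic gamma actin, was 1.05-fold lower in iNSC_14F, 1.02-fold higher in iNSC_13F, where the direction turned under both other scalings, and 1.87-fold lower in NSC. Cnn3 was 1.56-fold, 1.20-fold and 1.93-fold lower, and that of iNSC_13F turned higher with the median of its 6 probe sets. Tpm3 was 1.25-fold, 1.01-fold and 1.62-fold lower than in MEF, and it turned higher in iNSC_13F with the median of probe sets and in NSC with scaling to the controls. In iNSC_14F, iNSC_13F and NSC these relatives thus lay within 2-fold of MEF, where the muscle actins, Cnn1 and Tpm2 were at least 17.6-fold lower. Actg1 was read on an _s_at probe set and Cnn3 on an _x_at probe set. The limit of shared probes given for Acta2 thus holds for Actg1 too.

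Other relatives were lower too. Tpm4 was 4.20-fold lower in iNSC_14F, 3.33-fold in iNSC_13F and 2.46-fold in NSC. Tagln2 was 6.10-fold, 13.0-fold and 6.15-fold lower. Actn1, an actin crosslinker, was 20.7-fold, 16.2-fold and 71.9-fold lower. Myl12a, a light chain close to Myl9, was 1.93-fold, 1.43-fold and 3.46-fold lower, while Myl12b was 1.56-fold, 1.66-fold and 1.33-fold higher. Scaled to hybridization controls, NSC was lower than MEF by 1.33-fold for Tpm4, 3.32-fold for Tagln2, 38.8-fold for Actn1 and 1.87-fold for Myl12a. With that scaling Tagln2 missed 4-fold in NSC, and Myl12b was 2.46-fold higher. Of the 12 measured genes of this list, 4 were at least 4-fold lower in iNSC_14F (8.03% of all genes) and 3 in iNSC_13F (9.27%), with 0 higher. In NSC 4 of 13 were lower (7.21% of all genes) and 1 was higher (6.09%). Its median log2 differences from MEF were -1.24, -0.91 and -0.97.

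**Figure D4:**
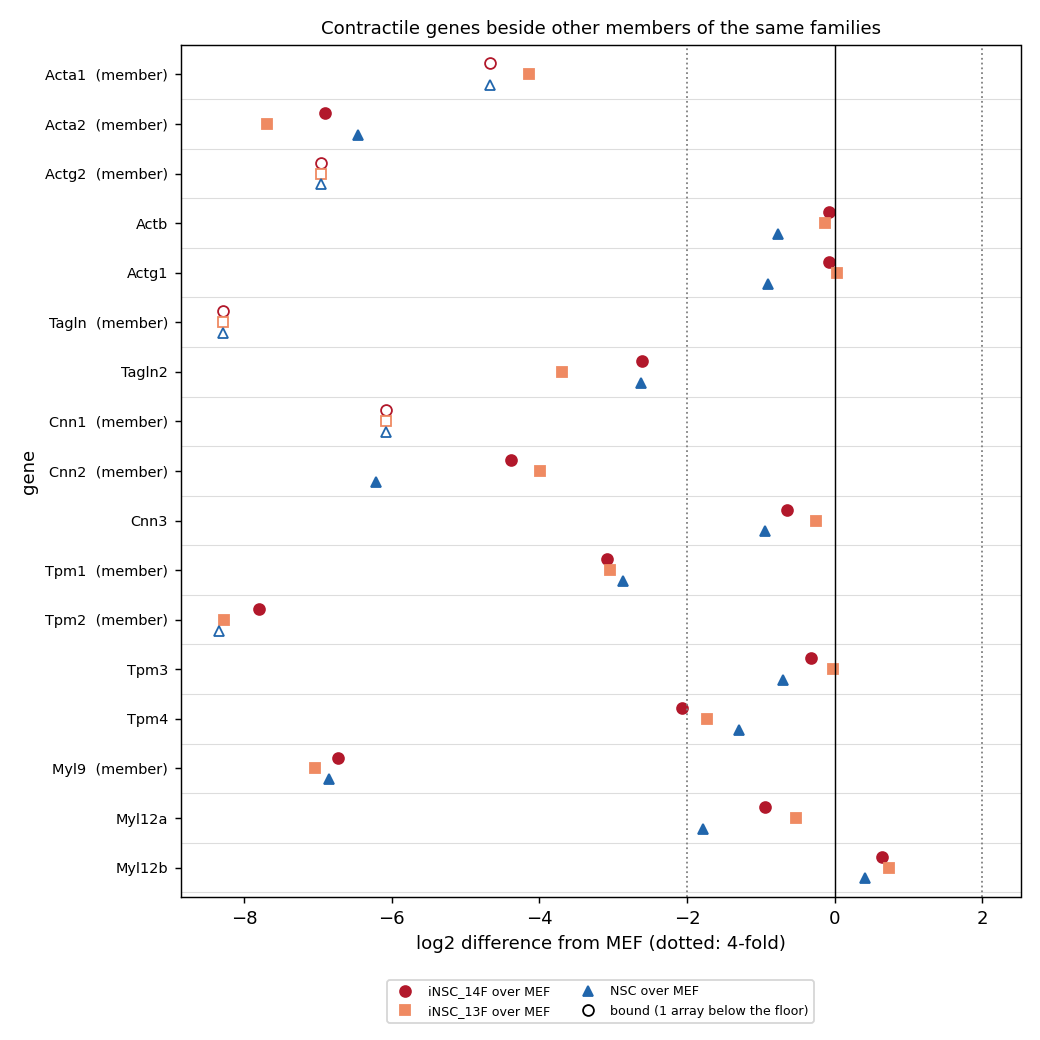
Log2 difference from MEF of the contractile actins, transgelin, calponins, tropomyosins and light chain beside other members of the same families, with open markers for bounds and dotted lines at 4-fold. Actb, Actg1, Cnn3, Tpm3 and Myl12b lie within 1 log2 unit of 0 for all 3 neural populations.

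The phosphorylation of the light chain also depends on myosin phosphatase and its inhibition, and genes of both stood on lists drawn up for this report. Ppp1r12a and Ppp1r12b, like Myl12a and Myl12b above, were named after their values were seen. Rock1 was named because its differences were among the 4 largest of its list. Rock1, a kinase that inhibits the phosphatase, had a signal of 224 in iNSC_14F and 118 in iNSC_13F, against 2747 in NSC and 1643 in MEF. It was 7.33-fold and 14.0-fold lower than in MEF, and 12.3-fold and 23.4-fold lower than in NSC. Of its 4 other probe sets, 3 were below the floor on both induced arrays and above it in NSC and MEF, and 1 was below it on all 4 arrays. Ppp1r12a, the targeting subunit of myosin phosphatase, had 612 in iNSC_14F and 703 in iNSC_13F, against 5109 in NSC and 3148 in MEF. It was 5.15-fold and 4.48-fold lower than in MEF, and 8.35-fold and 7.26-fold lower than in NSC, with all 4 of its probe sets in that direction. Rock1 and Ppp1r12a thus had the order opposite to Mylk between the induced cells and NSC, and kept their directions under each of the 8 alternatives. Both were named with their values known, and a link to Mylk was not tested. Of all genes, 9.4% in iNSC_14F and 11.3% in iNSC_13F were at least 4-fold lower than in NSC. Scaled to hybridization controls, Rock1 was 22.8-fold and 49.0-fold lower than in NSC, and Ppp1r12a 15.6-fold and 15.3-fold lower. Ppp1r12b was 2.14-fold and 2.15-fold higher than in NSC, but 1.15-fold and 1.02-fold higher with that scaling.

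**Figure D5:**
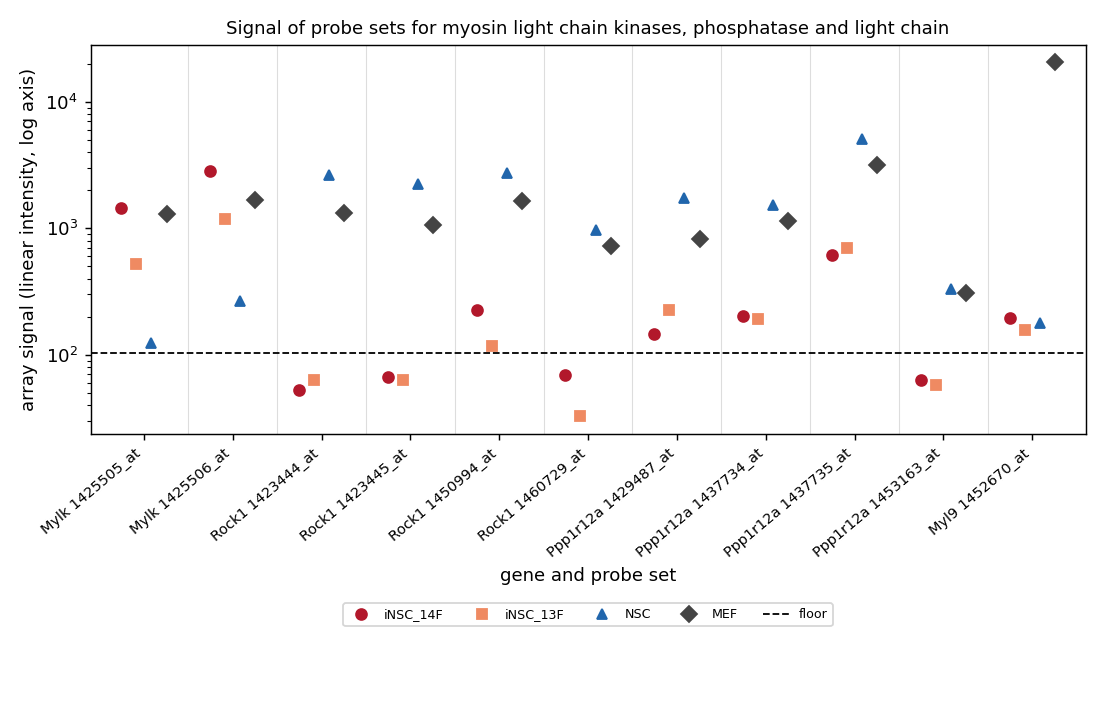
Signal (linear intensity on a log axis) of the probe sets of Mylk, Rock1, Ppp1r12a and Myl9 that were above the floor (dashed line) on at least 1 array, with 1 point per array. The induced arrays are above NSC for Mylk and below NSC for Rock1 and Ppp1r12a on every probe set drawn.

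More restricted markers of smooth muscle were read as well. Myh11, the smooth muscle myosin heavy chain, had a signal of 1.54 in iNSC_14F, 11.1 in iNSC_13F and 2.84 in NSC, against 195 in MEF. Myocd, which encodes myocardin, was below the floor on all 4 arrays. Myh11 was thus above the floor in MEF and below it in the other samples. Its MEF signal was near the floor, and the difference from MEF was a bound of at least 1.87-fold in each. Of 23 further smooth muscle genes with a probe set, 21 were measured. At least 4-fold lower than MEF were 9 of 21 in iNSC_14F (8.03% of all genes), 9 in iNSC_13F (9.27%) and 8 in NSC (7.21%), with 0 higher. The median log2 differences of the 21 genes were -1.83, -1.83 and -1.76, and 12, 9 and 9 of the values behind them are bounds. Csrp1, a LIM protein of smooth muscle, was at least 123-fold lower in iNSC_14F, 74.4-fold in iNSC_13F and 19.3-fold in NSC. Cald1, which encodes caldesmon, a thin filament protein, was 19.8-fold, 46.0-fold and 6.71-fold lower than in MEF. Scaled to hybridization controls, the NSC values were 10.4-fold for Csrp1 and 3.62-fold for Cald1, which then missed 4-fold. On the induced arrays both genes were also lower than in NSC. For Cald1 this was 2.96-fold in iNSC_14F and 6.86-fold in iNSC_13F, or 5.52-fold and 14.4-fold scaled to hybridization controls.

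Lists of other cell types were read on the same arrays. Of 24 striated muscle genes, 4 were above the floor in iNSC_14F, 5 in iNSC_13F, 2 in NSC and 6 in MEF, and Myod1 and Myog were below it on all 4. Fibroblast markers were also lower than in MEF. Of 11 measured, 9 were at least 4-fold lower in iNSC_14F (8.03% of all genes), 8 in iNSC_13F (9.27%) and 9 in NSC (7.21%). The part of these markers in the result was not tested. Their summed signal was 4111 in iNSC_14F, 4223 in iNSC_13F and 1494 in NSC, against 188282 in MEF. Of 10 neural stem cell markers, 8 were above the floor in iNSC_14F, 8 in iNSC_13F and 10 in NSC, against 3 in MEF. All 4 samples carry a source label of embryonic stem cells, but of 8 pluripotency markers 7, Pou5f1 and Nanog among them, were below the floor on all 4 arrays. The other, Esrrb, had a signal of 133 in iNSC_14F and 256 in iNSC_13F, against 64.1 in NSC and 102 in MEF, both below the floor. Of 7 hepatocyte markers 0 were above the floor on any array, and of 7 B lymphocyte markers 1, Ebf1, was above it on all.

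Regulators of the contractile genes were less separated than the genes themselves. Srf had a signal of 1074 in iNSC_14F, 2420.1 in iNSC_13F and 605 in NSC, against 2153.5 in MEF. It was 2.00-fold lower than MEF in iNSC_14F and 1.12-fold higher in iNSC_13F, where 3 alternatives turned it lower, and 3.56-fold lower in NSC. Mrtfa, an SRF coactivator that responds to free actin, was 2.51-fold, 2.28-fold and 4.89-fold lower than in MEF. Mrtfb, its relative, was 1.45-fold, 1.89-fold and 1.17-fold higher. Scaled to hybridization controls, Srf was 1.92-fold and Mrtfa 2.64-fold lower in NSC than in MEF, and Mrtfb 2.16-fold higher. Tgfb3, a growth factor of the TGF-beta family, was lower by 27.8-fold in iNSC_14F and by at least 52.0-fold in both iNSC_13F and NSC. Of the 21 measured genes of this list, 7 were at least 4-fold lower in iNSC_14F, 7 in iNSC_13F and 8 in NSC, with 0 higher. Of all genes 8.03%, 9.27% and 7.21% were lower. The medians of the list were -1.0, -1.19 and -1.49.

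The genes most like Acta2 over the 4 arrays were sought among 12310 genes outside the members, by the root mean square difference of log2 values after each gene's own mean was removed. The 10 nearest were Nupr1, Anxa3, Fbln5, Pdgfrb, Igf2, Cthrc1, Cdh11, Postn, Loxl1 and Col1a1, with differences between 0.408 and 0.488. All 10 had their highest signal in MEF. Among the members, Myl9 was nearest to Acta2 at 0.374 and Mylk farthest at 3.07. With 4 arrays, any gene that is high in MEF alone comes close in this measure.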

How the data were processed

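The values deposited by the authors are intensities on a linear scale, 1 for each probe set on each array. MAS5 is the program that the submitters' processing notes name, with no version. Each array had a 2% trimmed mean of 500, so no further scaling was applied. The cell type label set the group, which gave 4 groups of 1 array.

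Gene names came from the array's annotation in GEO, updated through gene IDs from RefSeq (GRCm38.p6). Of 45101 probe sets, 34945 named 1 gene, 932 several and 9211 none, and 13 control probe sets with a gene name were left out. The floor was the 95th percentile of 86 receptor probe sets on the array where it was highest, and lower values were set to it before taking log2. A gene took its brightest probe set by mean log2. All 6 pairs of arrays were compared with no test, since 1 array per group leaves no residual degrees of freedom. Of the list genes other than members, up to 4 with the largest differences per list could be named, with a few fixed ones. The 8 alternatives were 2 scalings, 3 floors, 2 choices of probe set and a filter on both arrays. The members and the 14 lists beside them were chosen with earlier results of these data known. The number of arrays limits the precision. Python 3.11.15, numpy 2.4.6 and pandas 2.3.3 were used.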

Additional observations from a re-analysis of the deposited data

Results flagged for a closer look

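Mylk and Myl9 were picked out because the induced arrays lay on opposite sides of a comparison population. For Mylk, iNSC_14F was above and iNSC_13F below MEF, and the induced arrays differed by 1.26 (log2). The sides held under each of the 8 alternatives, with log2 differences from MEF between 0.17 and 0.75 in iNSC_14F and between -1.30 and -0.48 in iNSC_13F. For Myl9, iNSC_14F was above and iNSC_13F below NSC, and they differed by 0.31 (log2), less than the 2.32-fold within which 95% of genes lay. With scaling to hybridization controls Myl9 was below NSC on both arrays, by log2 differences of -0.77 and -1.26. Neither difference was tested, since there is 1 array per group.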

How the results depend on the processing

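No paired analysis was possible because each group holds 1 array, and for the same reason no array could be left out in turn. With the filter on both arrays, the members called lower than MEF were 5 in iNSC_14F, 6 in iNSC_13F and 5 in NSC. The other members called lower are bounds. That filter gave members' medians against MEF of -5.55 in iNSC_14F and -4.14 in iNSC_13F. A floor at the 99th percentile gave -5.70 for both, the median of probe sets and leaving out _s_at and _x_at probe sets each gave -5.37 and -5.11, and no floor with a pseudocount of 16 gave -7.25 in iNSC_13F. Against NSC, scaling to hybridization controls left 0 members called higher and 1 lower in iNSC_13F, and a floor at the 99th percentile moved that median to 0.99. Values that could not be computed under an alternative, such as bounds under the filter on both arrays, were left out of the next count. Of 372 single-member values under an alternative, 367 stayed on their side of 4-fold, 4 lost the call and 1 gained it. Among them 0 called differences changed sign. All 5 changes came with scaling to hybridization controls, in Tpm1 and Mylk for NSC against MEF (log2 -1.98 and -1.78) and in Acta2, Cnn2 and Mylk for iNSC_13F against NSC (-2.30, 1.16 and 1.08). Signals near the floor limit Acta1, Tpm2 and Myl9 on the neural arrays.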

Other observations

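Genes of focal adhesions and stress fibres, to which contractile filaments attach, were also lower than in MEF. Of 16 measured, 10 were at least 4-fold lower in iNSC_14F (8.03% of all genes), 7 in iNSC_13F (9.27%) and 11 in NSC (7.21%), with 0 higher. The medians were -2.19, -1.92 and -2.82. Lpp, an adhesion adaptor, was 51.4-fold lower in iNSC_14F, at least 56.2-fold in iNSC_13F and 11.7-fold in NSC. Palld, which encodes the actin crosslinker palladin, was 14.2-fold, 20.7-fold and 19.4-fold lower. Scaled to hybridization controls, the NSC values were 6.32-fold for Lpp and 10.5-fold for Palld. Tgfb1i1, which encodes the adaptor Hic-5, was 4.10-fold, 5.75-fold and at least 18.3-fold lower.

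Genes known to respond to TGF-beta were all at least 4-fold lower than in MEF on the induced arrays (9 of 9 on each) and in 8 of 9 cases in NSC. Of all genes, 8.03% were in iNSC_14F, 9.27% in iNSC_13F and 7.21% in NSC. Of the 9 values, 5 are bounds in iNSC_14F, 3 in iNSC_13F and 6 in NSC. Ccn2, a matricellular protein, had a signal of 24.0 in iNSC_14F, 1070.0 in iNSC_13F and 33.5 in NSC, against 48902 in MEF. Thbs1, thrombospondin 1, had 30.2 in iNSC_14F, 505 in iNSC_13F and 51.3 in NSC, against 27589 in MEF. Both were above the floor in iNSC_13F and below it in iNSC_14F and NSC. Ccn2 also stood on a list of 10 SRF targets, and Postn of the TGF-beta list was also a fibroblast marker. Of the SRF targets measured, 4 of 9 were at least 4-fold lower than MEF in iNSC_14F (8.03% of all genes). In iNSC_13F 4 of 10 were (9.27%) and in NSC 5 of 9 (7.21%), with 0 higher. The medians of the SRF list were -1.86, -0.47 and -2.22.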
